A study of Xenopus laevis with 90 samples.

Results

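The window depletion was read in *Xenopus laevis* embryos at 6.5 hpf (hours post fertilization). It compares embryos treated to have less of the promoter mark H3K4me3, only before their genome was activated, with control embryos. The controls were injected with inactive versions of the same proteins. The libraries were chosen by their titles, 3 treated pools against 3 control pools in each of 2 frogs. They make up 12 of the 90 RNA-seq libraries of the series. The study asked whether H3K4me3 present before activation bears on transcription when the zygotic genome switches on. Each library was made from a pool of 3 embryos, and the 3 pools of a group came from the eggs of 1 frog. Values were deposited as TPM, a transcript abundance scaled to the same total in every library, in 1 table per frog.

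Treated embryos received mRNA for wild-type Kdm5b (11 ng), a demethylase that removes H3K4me3, for H3.3K4M (345 pg), a histone that cannot be methylated at that lysine, and for TIR1 (5 ng), which joins degron-tagged proteins to the degradation machinery when auxin is present. In control embryos the Kdm5b mRNA (4 ng) coded for an enzyme without catalytic activity, the H3.3 mRNA (345 pg) was unmutated, and TIR1 (5 ng) was the same. Both groups were given auxin (IAA, 500 µM) from the 256-cell stage at 4.5 hpf, so that the tagged proteins would be degraded before activation. Wild-type embryos at 6.5 hpf were not injected and had no auxin. The Kdm5b sequence is a mouse fragment and the amounts were set by the study for equal protein, so treated and control embryos differ in the mass of injected mRNA as well as in enzyme activity, and these cannot be told apart in RNA. Because the pools of a frog share a mother and the study calls them technical replicates, the p-values measure the spread between pools and not between animals, and each frog is given on its own.

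H3K4me3 is laid on promoters by CXXC1-containing SET1 and MLL-type complexes and is removed by KDM5 demethylases. It accompanies active promoters. The study found it at the same promoters in spermatids, sperm and embryos before and after activation. Whether this is continuous transmission was unclear to its authors. Frog embryos divide without much transcription until the mid-blastula transition, when maternal factors such as Pou5f3 and Sox3 open enhancers and the first zygotic mRNAs, many of them for germ layer regulators, are made while maternal mRNAs are still abundant.

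The 12 libraries held 17966 to 18927 genes at 1 TPM or more, with protein-coding genes taking 66.5% to 77.9% of the TPM, tRNA genes 1.21% to 3.34% and ribosomal RNA 3.39% to 7.78%. TPM keeps no record of depth, so the number of reads behind a value is unknown. Of 39 copies of blastula markers, 37 and 34 had a mean of at least 1 TPM in treated pools of frog 1 and frog 2. In control pools these were 38 and 37. Of the 39 and 38 tested, 1 and 6 were lower in treated pools at a limma adjusted p under 0.05. These are 2.56% and 15.79%, against 0.101% and 0.952% of all genes. The summed level of the 39 copies was 7580 to 8130 TPM in treated and 7300 to 8270 TPM in control pools of frog 1. In those of frog 2 it was 6850 to 7660 and 6600 to 6930 TPM. Of 42 copies of late tissue markers 4 and 3 passed the filter. They summed to 4.59 to 9.24 TPM in treated and 5.71 to 10.2 TPM in control pools of frog 1, and to 4.65 to 6.62 and 5.1 to 7.49 TPM in frog 2. The carrier sequence of the injected mRNAs was seen through *hbg1.L*, a globin gene, at 31400, 18900 and 27700 TPM in treated pools, against 18500, 17400 and 11600 TPM in control pools and at most 0.829 TPM in wild type of frog 1. Frog 2 gave 11300, 8660 and 6410 TPM, against 5290, 5640 and 6010 TPM and at most 0.152 TPM in wild type. All injected pools thus held the transcripts and no wild-type pool did. Treated pools of *hbg1.L* lay wholly above control pools in both frogs. The treated minus control difference in *hbg1.L* did not pass the test (limma adjusted p = 0.549 and 0.451). *h3-5.L* was listed with the injected H3.3. In frog 2 it was at 818, 585 and 476 TPM in treated and 281, 305 and 312 TPM in control pools. Its change was 1.03 (limma adjusted p = 0.119), and 1.75 and 1.13 at the earlier and later times (0.0282 and 0.0404). In frog 1 the pools overlapped, with a change of -0.29. Wild-type pools held *h3-5.L* at 69.0, 86.2 and 86.6 TPM in frog 1 and 83.1, 62.8 and 83.7 TPM in frog 2. Every treated and control pool was above every wild-type pool of its frog. Control minus wild type was 2.23 and 1.96 for this gene (limma adjusted p = 7.85e-08 and 0.000233). Whether its difference between treated and control pools reflects the injected load was not tested.

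Treated embryos had lower levels of many genes that begin to be transcribed around 6.5 hpf, among them the BMP target *id3*, the *ventx* repressors, hyaluronan synthase *has1* and *hes7.1*. In frog 2, treated embryos had 193 genes lower and 75 higher than control embryos, 0.952% and 0.37% of 20277 genes tested. In frog 1, 21 genes were lower and 1 was higher, 0.101% and 0.00479% of 20891. The test was limma on log2(TPM + 1) with Benjamini-Hochberg adjustment at 0.05, fitted per frog over all 45 libraries of its table. Without adjustment, limma's p was under 0.05 for 1882 genes of frog 1 and 3192 of frog 2, in either direction. Fold changes on this scale understate changes of low genes. Treated pools lay wholly below control pools for 829 genes in frog 1 and 728 in frog 2, 3.97% and 3.59% of those tested, and wholly above for 1685 and 3832, 8.07% and 18.9%. The median gene was 0.07 and 0.11 higher on the log2 scale in treated embryos, and a median-ratio rescaling took this shift to -0.01 in both frogs.

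The split of higher and lower calls depended on the scaling. Median-ratio rescaling gave 54 lower and 11 higher genes in frog 1, while frog 2 had 241 and 22. Quantile normalization gave 60 and 45 in frog 1 and 218 and 54 in frog 2. Protein-coding genes alone gave 61 and 6 in frog 1 and 206 and 39 in frog 2. In frog 1 the number of lower genes also hung on single pools. It was 44 without the treated pool 1.1, 8 without treated pool 1.2 or 1.3, and 7, 10 and 13 without control pools 1.1, 1.2 and 1.3. In frog 2 it stayed between 122 and 172, the lowest without control pool 2.3. The number of higher genes in frog 2 was 6, 16 and 94 without treated pools 2.1, 2.2 and 2.3, and 58, 11 and 13 without control pools 2.1, 2.2 and 2.3.

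Most lower genes of frog 2 also had lower values in treated pools of frog 1. Of the 193 genes lower in frog 2, 184 (95.3%) were below 0 in frog 1 as well, with a median log2 change of -0.43 there and -0.95 in frog 2, and in 106 of them the treated pools of frog 1 lay wholly below its control pools. Of the 75 genes higher in frog 2, 23 (30.7%) were above 0 in frog 1, but 41 of the 75 are snRNA entries with 1 shared value in every library. Of the other 34, 23 (67.6%) were above 0 in frog 1. That is close to the share of all genes there, of which 31.9% were below 0. Of the 21 genes lower in frog 1, 16 were below 0 in frog 2 and 12 had no overlap between the groups there. The frogs share no library, and the difference between them was not tested, since their tables were normalized separately.

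**Figure D1:**
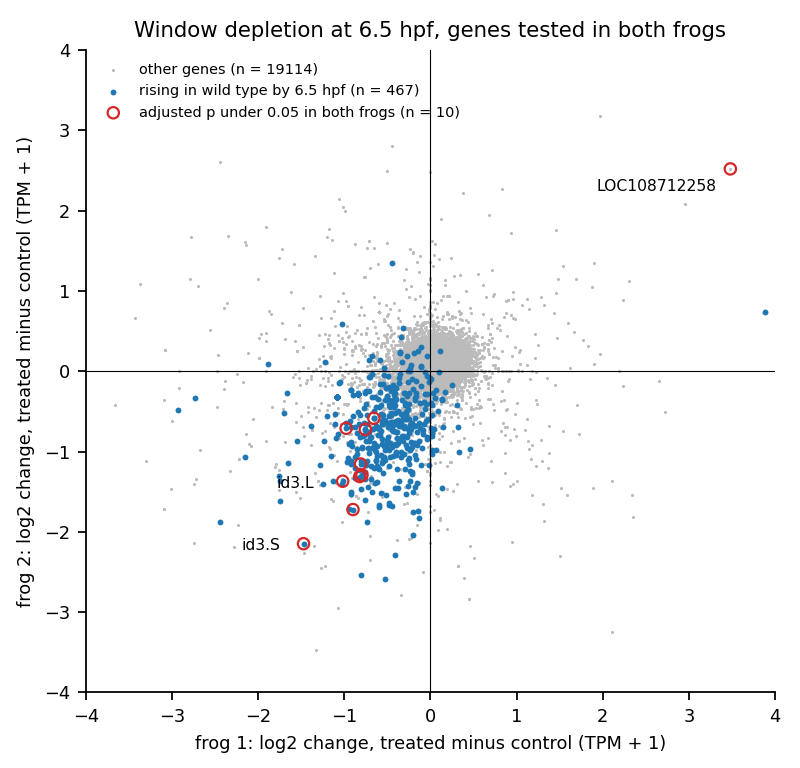
Log2 change of TPM + 1, treated minus control at 6.5 hpf, in frog 1 (x axis) and frog 2 (y axis) for each gene tested in both frogs, with genes that rose in wild type by 6.5 hpf in blue and genes past the threshold in both frogs ringed in red. Blue points gather below 0 on both axes, with *id3.S* at -1.47 and -2.15, and LOC108712258 stands alone at 3.48 and 2.52; 3 genes lie outside the axes.

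Only 10 genes passed the threshold in both frogs with the same sign, 9 lower (0.046% of 19581 genes tested in both) and 1 higher (0.00511%). The lower ones were *id3.S*, *id3.L*, *has1.S*, *has-rs.S*, *ventx2.1.S*, *hal.1.L*, *foxi4.2.L*, *sfrp2.L* and LOC121393193, and the higher one was LOC108712258. This list was fragile: with a pseudocount of 0.1, with only the 6 libraries of the contrast in the fit, or with only the 5 groups at 6.5 hpf, LOC108712258 alone remained. Leaving out single pools gave 3 to 23 such genes, with 23 when treated pool 1.1 was left out and 3 without treated pool 1.2 or control pool 1.2.

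*id3* encodes an inhibitor of DNA binding, a helix-loop-helix protein without a DNA-binding region that is switched on by BMP signals. The S copy (chromosome 2S, 68321643 to 68323592, v10.1 assembly) was at 7.71, 4.26 and 5.38 TPM in treated pools of frog 1, against 16.9, 11.7 and 26.6 TPM in control pools and 20.1, 22.4 and 20.3 TPM in wild type. In frog 2 it was at 1.86, 2.48 and 0.905 TPM in treated, 9.29, 9.65 and 14.1 TPM in control and 16.4, 10.5 and 16.2 TPM in wild-type pools. Every treated pool was below every control and wild-type pool in both frogs. The log2 change was -1.47 ± 0.196 (SE) in frog 1 and -2.15 ± 0.219 in frog 2 (limma adjusted p = 0.000102 and 2.2e-07). In frog 1 the adjusted p of *id3.S* was 0.0653 with a pseudocount of 0.1, 0.353 with only the 6 libraries and 0.109 with only the groups at 6.5 hpf. Against control embryos without auxin, a comparison added after seeing the data, the frog 1 change of *id3.S* was -0.33 (0.151). The median over all genes in that comparison was 0.34.

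The L copy of *id3* (2L, 60458049 to 60460152) was at 25.2, 14.4 and 16.1 TPM in treated, 35.7, 35.3 and 42.2 TPM in control and 23.9, 29.6 and 26.5 TPM in wild-type pools of frog 1. Frog 2 had 6.05, 6.79 and 4.94 TPM in treated, 14.7, 14.0 and 23.0 TPM in control and 20.2, 16.3 and 25.1 TPM in wild-type pools. Treated pools were below all control pools in both frogs, and in frog 1 treated pool 1.1 lay within the wild-type range. The change of *id3.L* was -1.02 ± 0.162 and -1.37 ± 0.181 (adjusted p = 0.00266 and 1.15e-05). Xenopus laevis holds L and S copies of many genes from an ancient genome doubling, and reads shared by near-identical copies are divided by the quantifier, so the split between copies is less certain than their direction.

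*ventx2.1.S* (7S, 16926730 to 16928499) encodes a homeodomain repressor of dorsal fate that acts below BMP. It was at 48.6, 32.8 and 33.6 TPM in treated, 65.3, 65.4 and 70.1 TPM in control and 60.9, 68.1 and 74.0 TPM in wild-type pools of frog 1. Frog 2 had 16.1, 24.7 and 16.4 TPM in treated, 41.7, 39.4 and 47.7 TPM in control and 58.3, 36.7 and 58.8 TPM in wild-type pools. The treated pools formed the lowest group in both frogs with no overlap. The change of *ventx2.1.S* was -0.81 ± 0.165 and -1.15 ± 0.18 (adjusted p = 0.029 and 0.000136).

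*has1.S* (3S, 1590220 to 1594567) encodes a hyaluronan synthase, which makes the matrix polymer hyaluronan. It was at 8.69, 4.67 and 6.56 TPM in treated, 11.0, 16.8 and 11.7 TPM in control and 18.2, 16.1 and 20.3 TPM in wild-type pools of frog 1. Frog 2 had 5.59, 7.04 and 2.98 TPM in treated, 15.6, 17.4 and 23.8 TPM in control and 21.7, 17.4 and 20.5 TPM in wild-type pools. Treated pools were below all others in both frogs. The change of *has1.S* was -0.9 ± 0.161 and -1.72 ± 0.235 (adjusted p = 0.00765 and 1.87e-05). Its neighbour *has-rs.S* (3S, 1599644 to 1605622), a hyaluronan synthase related sequence, was at 5.65, 3.46 and 5.0 TPM in treated and 9.38, 10.2 and 7.46 TPM in control pools of frog 1. It was at 1.89, 2.68 and 1.8 TPM in treated and 6.16, 6.39 and 7.59 TPM in control pools of frog 2. Treated pools of *has-rs.S* were below all control pools in both frogs, but in frog 1, where wild type was at 6.72, 5.37 and 7.1 TPM, treated pool 1.1 was within the wild-type range. Its changes were -0.82 ± 0.167 and -1.31 ± 0.187 (adjusted p = 0.029 and 3.68e-05).

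*hal.1.L* (3L, 64027480 to 64040853), which encodes histidine ammonia-lyase of histidine breakdown, was at 6.78, 4.71 and 7.08 TPM in treated and 9.67, 13.3 and 11.3 TPM in control pools of frog 1. Frog 2 had 2.91, 5.63 and 2.69 TPM in treated and 9.6, 10.3 and 10.9 TPM in control pools. Treated pools lay below control pools in each frog, with changes of -0.8 ± 0.152 and -1.29 ± 0.17 for *hal.1.L* (adjusted p = 0.0196 and 1.15e-05). *foxi4.2.L* (1L, 18258694 to 18261779), a forkhead factor of the early ectoderm, was at 35.5, 28.5 and 27.9 TPM in treated, 61.0, 78.8 and 47.1 TPM in control and 37.1, 32.9 and 40.4 TPM in wild-type pools of frog 1. Frog 2 had 10.7, 12.0 and 9.26 TPM in treated, 15.8, 15.9 and 23.1 TPM in control and 20.6, 18.6 and 19.9 TPM in wild-type pools. In frog 1 the control pools stood above wild type and treated pool 1.1 lay within the wild-type range, while in frog 2 treated pools were below both other groups. The change of *foxi4.2.L* was -0.98 ± 0.199 and -0.71 ± 0.183 (adjusted p = 0.029 and 0.0447).

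*sfrp2.L* (1L, 58284700 to 58294288) encodes a secreted Wnt-binding protein. It was at 4.52, 3.71 and 3.15 TPM in treated, 5.66, 7.42 and 6.55 TPM in control and 3.78, 3.9 and 4.48 TPM in wild-type pools of frog 1. Frog 2 had 3.09, 2.9 and 2.85 TPM in treated, 3.92, 5.66 and 5.34 TPM in control and 5.79, 3.34 and 5.63 TPM in wild-type pools. As with *foxi4.2.L*, the frog 1 control pools were above wild type and treated pools were close to it. The change of *sfrp2.L* was -0.66 ± 0.139 and -0.59 ± 0.13 (adjusted p = 0.0427 and 0.011). Set against control embryos without auxin in frog 1, an added comparison chosen after seeing the data, *has1.S*, *has-rs.S*, *hal.1.L*, *foxi4.2.L* and *sfrp2.L* turned to 0.24, 0.03, 0.04, 0.08 and 0.21. All of these lay below the median of 0.34 over all genes in that comparison. LOC121393193 (4S, 20646364 to 20648844), a protein-coding gene without a name in RefSeq, changed by -0.76 ± 0.158 and -0.72 ± 0.162 (adjusted p = 0.0367 and 0.0113).

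The single gene higher in both frogs, LOC108712258 (3S, 6252828 to 6304837), is protein-coding and unnamed in RefSeq. It was at 307, 210 and 301 TPM in treated, 24.3, 26.2 and 19.5 TPM in control and 19.8, 21.9 and 24.3 TPM in wild-type pools of frog 1. Frog 2 had 115, 95.8 and 65.0 TPM in treated, 14.8, 14.7 and 14.8 TPM in control and 14.1, 11.9 and 14.6 TPM in wild-type pools. Control and wild-type pools lay together, with every treated pool far above. The change was 3.48 ± 0.234 and 2.52 ± 0.19 (adjusted p = 4.22e-12 and 1.42e-10), and no alternative processing removed it. LOC108712258 was about as high at the other times and without auxin. In frog 1 its change was 3.29 at 5.5 hpf, 3.52 at 7.5 hpf and 3.26 in the persistent depletion at 6.5 hpf, in which no auxin was given. In frog 2 these changes were 2.84, 2.48 and 3.04.

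**Figure D2:**
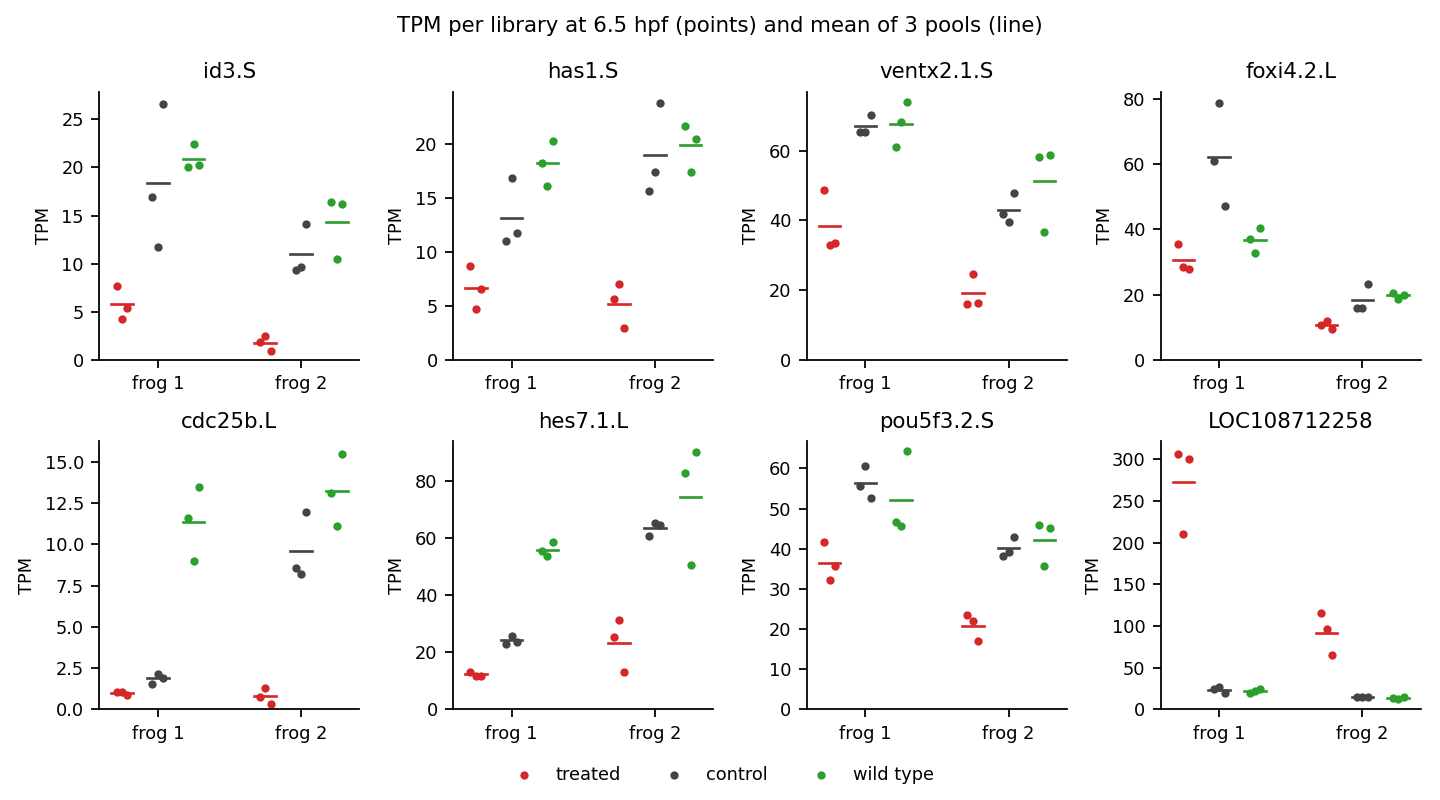
TPM per library at 6.5 hpf for 8 genes, with treated, control and wild-type pools from left to right within each frog (points) and the mean of 3 pools (lines). Treated pools are the lowest group for *id3.S*, *has1.S*, *ventx2.1.S* and *pou5f3.2.S* in both frogs, the frog 1 control pools of *cdc25b.L* and *hes7.1.L* lie well under wild type, and LOC108712258 is high in treated pools only.

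The genes with the lowest mean change over both frogs, among genes called in at least 1 frog with no overlap in either, were led by *id3.S*, XB5961731.L and *cdc25b.L*. XB5961731.L, a provisional entry without a match in the RefSeq table used here, changed by -0.8 in frog 1 and -2.54 in frog 2. *cdc25b.L* (1L, 11119190 to 11134526) encodes a phosphatase that activates cyclin-dependent kinases. It was at 1.06, 1.02 and 0.858 TPM in treated, 1.55, 2.14 and 1.91 TPM in control and 11.6, 8.99 and 13.5 TPM in wild-type pools of frog 1. Frog 2 had 0.73, 1.31 and 0.33 TPM in treated, 8.57, 8.23 and 12.0 TPM in control and 13.1, 11.1 and 15.5 TPM in wild-type pools. Frog 1 control pools were thus nearer to treated than to wild-type pools, and frog 2 control pools nearer to wild type. The change of *cdc25b.L* was -0.53 (adjusted p = 0.709) in frog 1 and -2.58 ± 0.369 (3.85e-05) in frog 2.

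*hes7.1.L* encodes a hairy/enhancer-of-split repressor, a class of Notch targets. It was at 13.2, 11.8 and 11.8 TPM in treated, 23.0, 25.8 and 23.6 TPM in control and 55.6, 53.7 and 58.7 TPM in wild-type pools of frog 1. Frog 2 had 25.5, 31.2 and 12.9 TPM in treated, 60.8, 65.3 and 64.7 TPM in control and 82.9, 50.5 and 90.1 TPM in wild-type pools. Treated pools were lowest in both frogs, and frog 1 showed 3 separate levels. The change of *hes7.1.L* was -0.92 ± 0.22 (adjusted p = 0.0613) and -1.5 ± 0.318 (0.00654). *not.S*, a homeobox gene of the organizer and notochord, was at 17.0, 14.3 and 15.3 TPM in treated, 21.4, 27.8 and 23.2 TPM in control and 41.8, 42.4 and 47.0 TPM in wild-type pools of frog 1. Frog 2 had 9.16, 10.9 and 5.42 TPM in treated, 29.0, 29.1 and 28.1 TPM in control and 41.0, 33.6 and 42.1 TPM in wild-type pools. The order treated, control, wild type held in both frogs for *not.S*, with changes of -0.6 (adjusted p = 0.119) and -1.7 (1.15e-05).

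Of the rest of this group, *stx19.L*, a syntaxin of membrane fusion, changed by -0.94 and -1.72, and *rgcc.L*, a regulator of the cell cycle, by -0.73 and -1.88. *btg5.2.S*, of the BTG family of anti-proliferation factors, changed by -0.76 and -1.6, and *admp.S*, an organizer-made BMP ligand, by -0.81 and -1.46. None of these 4 passed in frog 1 and all passed in frog 2. The unnamed genes LOC121393064, LOC108719557 and LOC121401678 changed by -0.93 and -1.52, by -0.6 and -1.67, and by -0.67 and -1.5. In frog 1 control minus wild type, a contrast that shares the control pools with the window contrast, was -2.1 for *cdc25b.L*, -1.95 for XB5961731.L, -1.24 for *admp.S*, -1.18 for *hes7.1.L*, -1.05 for *btg5.2.S* and -0.84 for *not.S*, all past its threshold. That contrast called 607 genes in frog 1 (2.91%) and 144 in frog 2 (0.71%). On the higher side only LOC108712258, *lurap1.L* (0.3 and 0.42), an adaptor protein, and *rbpms2.S* (0.26 and 0.35), an RNA-binding protein of the germ line, met the same rule, and the last pair passed in frog 2 only.

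Frog 1 also had lower genes that frog 2 did not share. *inka1.L*, an inhibitor of a p21-activated kinase, was at 3.15, 3.56 and 3.15 TPM in treated, 7.85, 7.59 and 7.78 TPM in control and 2.68, 2.48 and 3.1 TPM in wild-type pools of frog 1 (-1.03 ± 0.183, adjusted p = 0.00765), and changed by -0.04 in frog 2. *grhl3.L*, a regulator of surface ectoderm, was at 13.1, 10.1 and 8.99 TPM in treated, 16.4, 19.2 and 18.6 TPM in control and 3.13, 2.59 and 4.34 TPM in wild-type pools of frog 1 (-0.72 ± 0.154, 0.0494), and changed by 0.14 in frog 2. *cdkn1a.S*, the p53 target that blocks the cell cycle, was at 0.808, 0.829 and 0.653 TPM in treated, 1.69, 1.17 and 1.81 TPM in control and 0.154, 0.0588 and 0.0435 TPM in wild-type pools of frog 1 (-0.53 ± 0.109, 0.029), and changed by 0.01 in frog 2. In these genes the frog 1 control pools were the highest group, and treated pools were near wild type for *inka1.L* and between both for *grhl3.L* and *cdkn1a.S*. Auxin itself was given to control and treated pools alike. Control pools with auxin against control pools without it differed at 4606 genes in frog 1 (22.0%), 4583 of them higher. In frog 2 they differed at 0 genes, and 1741 of 20277 had an unadjusted limma p under 0.05. The frog 1 median over all genes in that contrast was 0.27. Ribosomal RNA took 9.27%, 14.3% and 29.9% of the TPM in frog 1 control pools without auxin, against 5.24%, 6.44% and 7.78% with it. TPM of other genes falls as that share rises, and an effect of auxin apart from it was not tested.

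Genes were then grouped by their course in wild-type embryos, which do not enter the contrast. A set of 467 genes rose in wild type by 6.5 hpf, with a log2 change of at least 1 over 5.5 hpf past the threshold in both frogs. Treated embryos had lower mean values for nearly all of them: 93.8% were below 0 in frog 1 and 94.6% in frog 2, with medians of -0.5 and -0.64, against 0.07 and 0.11 for all genes. Of the 467, 14 and 167 were lower past the threshold, 3.0% and 35.76% against 0.101% and 0.952% of all genes tested, and 0 were higher in either frog. Limma's unadjusted p was under 0.05 for 208 and 265 lower and 1 and 2 higher members. Over all 20891 and 20277 genes tested, 1882 and 3192 reached that p in either direction. In frog 1 the 14 became 32 without treated pool 1.1, and 2 and 6 without treated pools 1.2 and 1.3. They became 4, 3 and 7 without control pools 1.1, 1.2 and 1.3, and 0 with a pseudocount of 0.1 or only the groups at 6.5 hpf in the fit. Against control embryos without auxin the frog 1 median of the 467 was -0.07, beside a median of 0.34 over all genes tested. Treated pools lay wholly below control pools for 267 and 298 of them, against 3.97% and 3.59% of all genes, and wholly above for 3 and 3. Of those wholly below, 74 and 13 were snRNA entries. Such entries can hold identical values and count as separate members in all numbers of this set. RNA in bulk pools does not tell fewer transcribing cells from less RNA per cell.

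The set held 283 protein-coding genes, 79 snRNA, 50 lncRNA, 41 tRNA and 8 snoRNA genes and 6 genes without a match in RefSeq. Its protein-coding members had medians of -0.41 and -0.7, with 13 and 150 lower past the threshold, the last 53% of them. Among the protein-coding members 92.6% and 94.3% were below 0, and treated pools lay wholly below control pools for 150 and 223. The 185 with under 1 TPM in wild type at 5.5 hpf had medians of -0.39 and -0.74, and the 98 with more had -0.43 and -0.68. Genes under and above 1 TPM at 5.5 hpf thus had medians within 0.1 of each other. The mean log2(TPM + 1) of the protein-coding members was 2.81, 2.59 and 2.62 in treated, 3.05, 3.11 and 3.11 in control and 3.03, 2.95 and 3.19 in wild-type pools of frog 1. In frog 2 it was 2.22, 2.33 and 2.09 in treated, 2.86, 2.9 and 3.08 in control and 3.04, 2.77 and 3.07 in wild-type pools. Every treated pool was below every control and wild-type pool in both frogs, and control pools overlapped wild type.

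The 557 genes that rose in wild type by 7.5 but not 6.5 hpf had medians of -0.23 and -0.21, with 4 lower genes in frog 1. Frog 2 had 24 lower ones, against 0.952% of all genes, and the 41 higher ones, against 0.37%, are all the snRNA entries that share 1 value. Their 332 protein-coding members had medians of -0.13 and -0.21, with 2 and 15 lower. The 500 genes that fell in wild type by 7.5 hpf had medians of 0.1 and 0.12, next to the 0.07 and 0.11 of all genes. Of them 0 were lower in either frog and 0 and 1 higher. At an unadjusted limma p under 0.05, 2 and 1 were lower and 48 and 103 higher. Of all 20891 and 20277 genes, 1882 and 3192 reached that p in either direction. The lower genes were thus mostly those already on in wild type at 6.5 hpf: 14 of 21 in frog 1 and 167 of 193 in frog 2, and with the later risers 18 and 191.

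**Figure D3:**
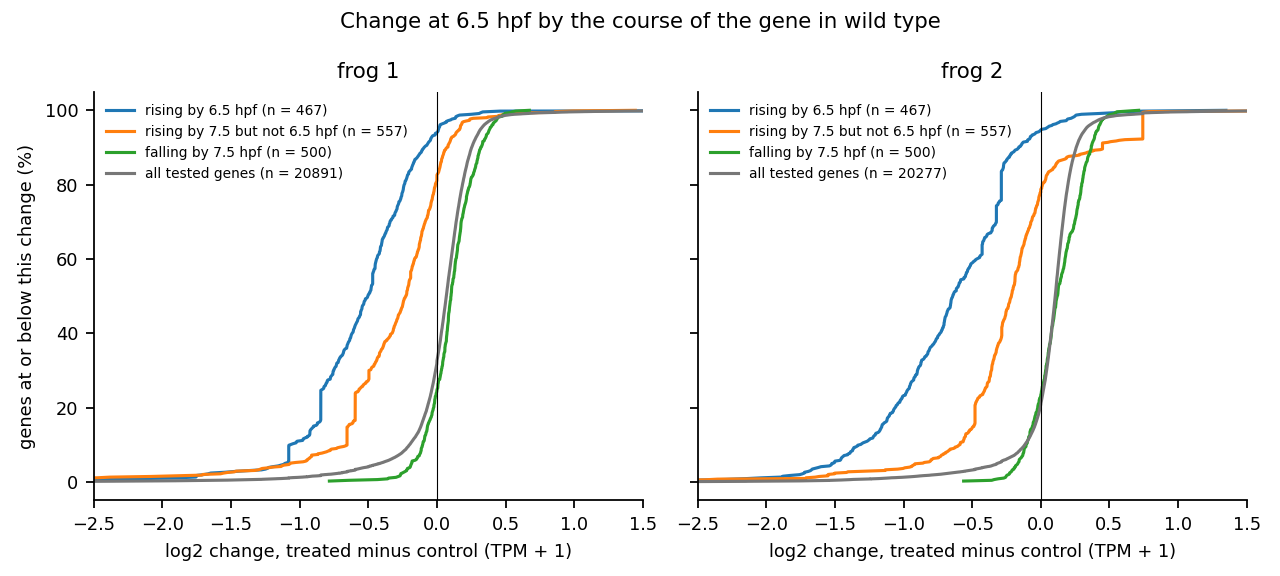
Cumulative share of genes (y axis, %) at or below a given log2 change of TPM + 1 between treated and control embryos (x axis) in each frog, for genes rising in wild type by 6.5 hpf (n = 467), rising by 7.5 but not 6.5 hpf (n = 557), falling by 7.5 hpf (n = 500) and all tested genes. The first curve lies left of all others over most of its length in both frogs, with medians of -0.5 and -0.64, the falling genes follow all genes, and the vertical steps are snRNA genes with identical values.

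Among the activators of the zygotic genome, the copies of *pou5f3.2*, POU factors of the Oct4 class that are transcribed at activation, were lower in frog 2. *pou5f3.2.S* was at 41.7, 32.1 and 35.7 TPM in treated, 55.7, 60.7 and 52.7 TPM in control and 46.6, 45.7 and 64.4 TPM in wild-type pools of frog 1. Frog 2 had 23.6, 22.0 and 17.0 TPM in treated, 38.3, 39.3 and 43.0 TPM in control and 45.9, 35.8 and 45.2 TPM in wild-type pools. Treated pools of *pou5f3.2.S* lay below both other groups in each frog, with changes of -0.62 ± 0.151 (adjusted p = 0.0694) and -0.93 ± 0.129 (2.56e-05). *pou5f3.2.L* was at 87.4, 74.6 and 83.5 TPM in treated, 118, 112 and 107 TPM in control and 78.3, 75.1 and 86.4 TPM in wild-type pools of frog 1, where only control pools stood apart. Frog 2 had 46.2, 45.8 and 39.0 TPM in treated, 70.0, 67.4 and 74.1 TPM in control and 62.4, 46.7 and 70.9 TPM in wild-type pools, a change of -0.68 ± 0.132 (0.00235) after -0.45 (0.135) in frog 1. The list of genome activators and pluripotency factors also holds *ventx* genes, some of them shared with the BMP list below. Of its 39 copies tested, 1 and 12 were lower, against 0.101% and 0.952% of all genes. The 1 in frog 1 was *ventx2.1.S*. The largest changes among those of frog 2 were in *ventx1.1.S*, *ventx1.1.L*, *ventx2.2.S* and *ventx3.2.L*. In frog 2 *klf4.L*, a zinc-finger pluripotency factor, was higher (0.43). All of the lower ones were among the 18 list members that rose in wild type by 6.5 hpf. Of protein-coding genes rising by then, 4.59% and 53% were lower in frog 1 and frog 2. The list medians were -0.1 and -0.12, and the maternal *sox3* copies, SoxB1 factors, did not pass in either frog, at -0.1 and 0.0 (L) and -0.11 and 0.01 (S).

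In the BMP pathway and its ventral targets 13 of 42 copies tested in frog 2 were lower, and 3 of 48 in frog 1, against 0.952% and 0.101% of all genes. The list medians were 0.0 in frog 2 and -0.01 in frog 1. Of the lower copies, 12 and 3 were among the 14 list members rising by 6.5 hpf. Of protein-coding genes rising by then, 53% and 4.59% were lower in frog 2 and frog 1. Besides *id3* and *ventx2.1.S* the lower copies included *ventx1.1.S* (-0.21 in frog 1 and -1.5 in frog 2), *admp.S* (-1.46 in frog 2) and *ventx1.1.L* (-0.26 and -1.43). *ventx1.1.S* was at 0.678, 0.861 and 0.131 TPM in treated, 3.37, 3.29 and 3.3 TPM in control and 5.2, 4.3 and 5.93 TPM in wild-type pools of frog 2. The groups of *ventx1.1.S* did not overlap there, and in frog 1 the control pools at 1.34, 1.37 and 1.17 TPM were just above the treated pools at 1.1, 0.845 and 1.02 TPM and below wild type at 3.55, 4.3 and 4.1 TPM. The *ventx* genes sit together on 7L (21731065 to 21807431), where 5 of 5 tested genes were lower in frog 2 with a median of -1.22 and 5 of 5 were below 0 in frog 1 with a median of -0.4. Their partners on 7S (16903309 to 16928499) gave 3 of 3 and medians of -1.35 and -0.76. Both runs were cut at their first and last gene lower in frog 2, so their frog 2 counts and medians follow from that choice.

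Nodal ligands, which induce mesoderm and endoderm, and their inhibitors were lower in frog 2 at 7 of 38 copies tested. In frog 1 this held for 0 of 39. The list medians were 0.03 in frog 2 and 0.02 in frog 1. At an unadjusted limma p under 0.05, frog 1 had 4 lower copies and 1 higher copy. Over all 20891 genes tested there, 1882 reached that p in either direction. All 7 lower copies of frog 2 were among the 11 list members rising by 6.5 hpf. In frog 2, 53% of protein-coding genes rising by then were lower, against 0.952% of all genes. *gdf3.S*, a TGF-beta ligand, was at 15.4, 12.5 and 13.6 TPM in treated and 18.1, 18.6 and 19.4 TPM in control pools of frog 1 (-0.41, adjusted p = 0.397). In frog 2 *gdf3.S* was at 4.55, 4.01 and 3.43 TPM in treated and 11.3, 11.4 and 15.6 TPM in control pools (-1.46 ± 0.162, 7.8e-07). Treated pools were the lower group in both frogs without overlap. The feedback inhibitor *lefty* (-1.15 for L, -0.93 for S) and *nodal.L* (-0.95) were lower in frog 2. A run of nodal genes on 3L (141478446 to 141537107), likewise cut at its lower genes of frog 2, held 5 lower of 7 tested in frog 2 with a median of -0.91. In frog 1 7 of 7 were below 0 with a median of -0.3. Mesendoderm transcription factors gave 10 of 43 lower in frog 2 and 0 of 49 in frog 1 (12 at an unadjusted limma p under 0.05), with medians of -0.26 in frog 2 and -0.11 in frog 1. They included the organizer homeobox gene *gsc* (S -1.44, L -0.95), *foxa4.L* (-1.34), a forkhead factor of the axial mesoderm, and the Mix-type gene *bix1.1.L* (-0.98). All 10 lower copies were also among the 19 list members rising by 6.5 hpf.

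In the Wnt list, 8 of 46 copies were lower in frog 2 and 1 of 48 in frog 1, *sfrp2.L*, against 0.952% and 0.101% of all genes. Of these copies, 7 and 1 were among the 14 list members rising by 6.5 hpf. Of protein-coding genes rising by then, 53% and 4.59% were lower in frog 2 and frog 1. *wnt8a.L*, the zygotic ventral Wnt ligand, was at 0.478, 0.759 and 0.165 TPM in treated, 2.55, 3.26 and 3.82 TPM in control and 4.73, 4.64 and 5.39 TPM in wild-type pools of frog 2 (-1.53 ± 0.203, adjusted p = 1.19e-05). In frog 1 *wnt8a.L* was at 3.41, 2.11 and 3.18 TPM in treated and 3.11, 2.94 and 5.36 TPM in control pools, which overlapped (-0.28, 0.65). The Wnt target *sp5l* was lower in frog 2 in both copies (L -1.12, S -1.11), as was the inhibitor *dkk1.S* (-0.97), whose frog 1 value was 0.46. In the FGF list 4 of 35 copies were lower in frog 2 and 0 of 35 in frog 1. Those of frog 2 were the ligand *fgf8* (L -1.22, S -0.8) and the phosphatases *dusp1.S* (-0.73) and *dusp5.L* (-0.7), which damp MAP kinase signals. Of these lower copies, 3 were among the 4 list members rising by 6.5 hpf. At an unadjusted limma p under 0.05, frog 1 had 6 lower and 2 higher FGF copies. Of all 20891 genes there, 1882 reached that p in either direction.

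The Notch and *hes* list gave 7 of 37 lower in frog 2 and 1 of 36 in frog 1. Beside *hes7.1.L* these were *hes7.1.S* (-1.39), *hes3.L* (-1.01) and *hes1.L* (-0.95) in frog 2 and *hes4.L* in frog 1 (-0.9 ± 0.185, adjusted p = 0.029, and -0.56 in frog 2), all of them repressors of the hairy class. Ectoderm and neural plate factors gave 10 of 50 in frog 2 and 2 of 52 in frog 1. *zic1.S*, a zinc-finger factor of the neural plate, changed by -1.64 in frog 2, and *krt70.S*, a keratin, and *foxd4l1.1.L*, a neural ectoderm forkhead factor, by -1.07 and -1.03. *zic1.S* was at 2.75, 2.53 and 1.26 TPM in treated, 8.53, 9.03 and 8.52 TPM in control and 15.2, 11.5 and 16.2 TPM in wild-type pools of frog 2. Its frog 1 control pools, at 3.45, 4.08 and 4.15 TPM, were close to the treated pools at 2.59, 1.96 and 2.99 TPM and far below wild type at 13.7, 12.0 and 12.6 TPM. Among adhesion and matrix genes the counts were 5 of 40 (frog 2) and 1 of 43 (frog 1), led by *has1.S* and *has2.L* (-1.22), with the tight junction gene *cldn4.S* (-0.83) and the ephrin *efnb2.S* (-0.56). Over all genes, 0.952% and 0.101% were lower in frog 2 and frog 1. In frog 2, 7 of 7 lower Notch copies, 9 of 10 ectoderm copies and 3 of 5 adhesion copies were among the genes rising by 6.5 hpf. These lists held 14, 17 and 3 rising members. Of protein-coding genes rising by then, 53% were lower in frog 2.

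Lists of maternal and housekeeping functions held few lower genes, and paired values below are for frog 2 and then frog 1. Maternal mRNA clearance factors gave 1 of 71 lower in frog 2, *btg5.2.S*, and 0 of 73 in frog 1, with medians of 0.15 and 0.12. At an unadjusted limma p under 0.05, 1 and 1 were lower and 19 and 1 higher. Of all 20277 and 20891 genes, 3192 and 1882 reached that p in either direction. Treated pools lay wholly above control pools for 36.6% and 9.6% of the clearance factors. Germ plasm and oocyte genes gave 0 of 35 in either frog with medians of 0.18 and 0.26, and treated pools lay wholly above control pools for 15 and 18 of them, against 18.9% and 8.07% of all genes, without a call in either direction, beside 15 and 15 higher and 0 and 0 lower at an unadjusted limma p under 0.05. H3K4 methylation writers, readers and erasers gave 0 of 44 in both frogs with medians of 0.12 and 0.11, close to those of all genes. At an unadjusted limma p under 0.05, 0 and 1 were lower and 6 and 3 higher. Of the 44 copies, *cxxc1.S*, the CpG-binding subunit of the SET1 complexes, changed by 0.07 and 0.11 and *kdm5b.S*, the frog's own demethylase gene, by 0.05 and 0.18. Cell cycle genes of the mid-blastula transition gave 2 of 57 lower in frog 2, *cdc25b.L* and *cdc25b.S* (-1.1), and 0 of 57 in frog 1. At an unadjusted limma p under 0.05, 2 and 0 were lower and 17 and 5 higher. Treated pools lay wholly above control pools for 35.1% and 5.3% of the cell cycle genes. The p53 and stress list gave 1 of 50 in each frog, *cdkn1a.S* in frog 1 and the survival gene *bcl2.L* in frog 2 (-0.42).

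**Figure D4:**
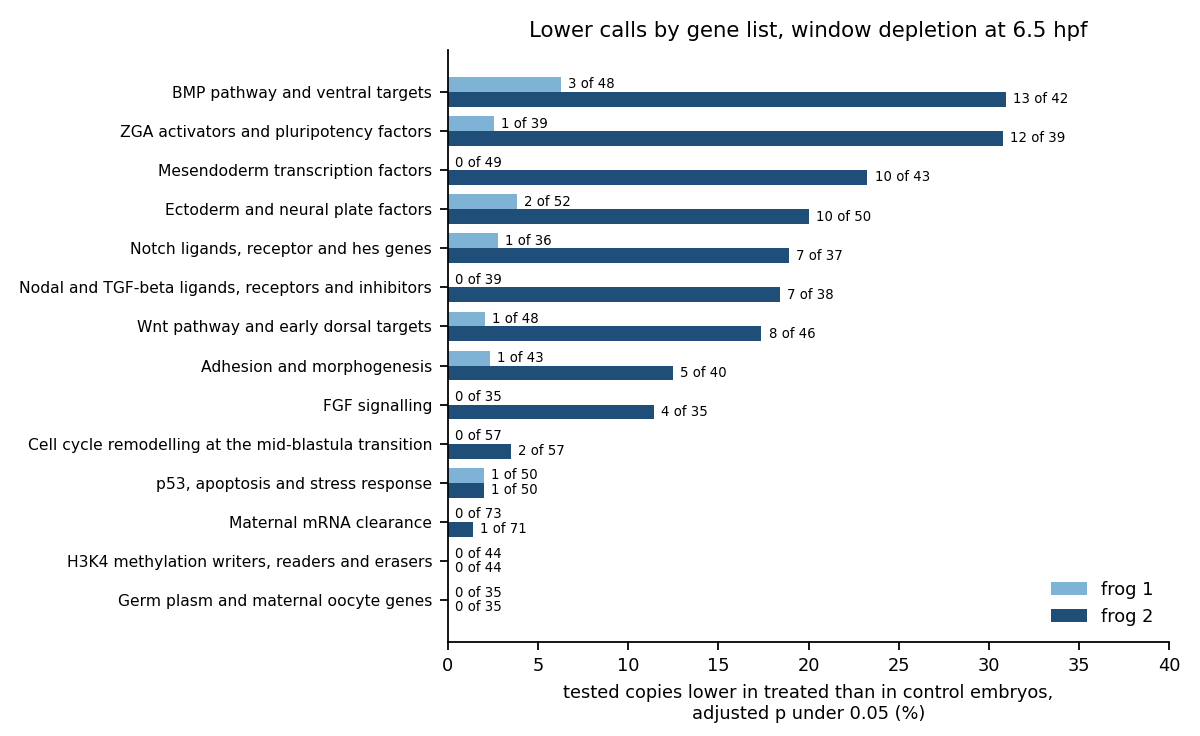
Share of tested copies in each gene list (x axis, %) with lower values in treated embryos and an adjusted p under 0.05, as bars for frog 1 (light) and frog 2 (dark) with the counts beside them. BMP genes (13 of 42) and genome activators and pluripotency factors (12 of 39), lists that share *ventx* copies, have the longest frog 2 bars. Germ plasm genes and H3K4 methylation genes have none in either frog. Over all genes tested, 0.101% and 0.952% were lower in frog 1 and frog 2, and over protein-coding genes rising by 6.5 hpf 4.59% and 53%.

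Most tRNA genes also had lower values in treated pools. These genes, 49 names tested in each frog, had medians of -0.87 and -0.93, with 93.9% and 91.8% below 0. Treated pools lay wholly below control pools for 24 and 30 names (49% and 61.2%), against 3.97% and 3.59% of all genes, and for 18 of 48 names tested in both frogs this held in both. Their share of all TPM was 1.21%, 1.29% and 1.27% in treated, 1.97%, 2.07% and 2.34% in control and 1.42%, 1.3% and 2.31% in wild-type pools of frog 1. In frog 2 it was 1.7%, 1.96% and 2.19% in treated, 3.09%, 3.0% and 3.34% in control and 3.15%, 3.86% and 4.34% in wild-type pools. Treated pools were below control and wild-type pools in both frogs, and control pools overlapped wild type in both. Only 1 and 2 names passed the test: trnat-cgu, a threonine tRNA, in frog 1 (7.64, 6.76 and 14.1 TPM in treated and 40.7, 33.2 and 35.1 TPM in control pools, -1.89, adjusted p = 0.00765), and trnae-cuc (-1.62, 0.0233) and trnal-aag (-1.38, 0.00688), glutamate and leucine tRNAs, in frog 2. A tRNA name sums near-identical loci, and mature tRNA is poorly caught by such libraries, so these values stand for what the library captured.

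Of the snRNA genes, 295 and 304 tested, the medians were -0.6 and -0.29, with 0 and 2 lower and 0 and 41 higher. In frog 1 134 were lower and 5 higher at an unadjusted limma p under 0.05, where entries with identical values count separately. Of all 20891 genes of frog 1, 1882 reached that p in either direction. The 41 higher ones are entries of 107 bases with the same value in every library, 37 of them on 9_10L, so they count as a single measurement. Each was at 33.2, 34.1 and 34.1 TPM in treated, 25.7, 16.4 and 18.3 TPM in control and 22.1, 27.7 and 22.2 TPM in wild-type pools of frog 2 (0.74 ± 0.197, adjusted p = 0.0472). In frog 1 the same entries were at 36.7, 45.4 and 26.2 TPM in treated and 59.2, 40.3 and 64.8 TPM in control pools, which overlapped with the opposite direction (-0.6, 0.411). With identical entries counted once, frog 2 had 185 lower and 29 higher genes. Long non-coding RNAs gave 2 lower of 1336 tested (0.15%) and 16 of 1156 (1.38%), shares near the 0.101% and 0.952% of all genes. Examples were LOC121396065 (1L, 231579373 to 231635859, -0.55 and -1.26), LOC121402951 (-0.98 and -0.71) and LOC108719063 (-0.53 and -0.98).

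**Figure D5:**
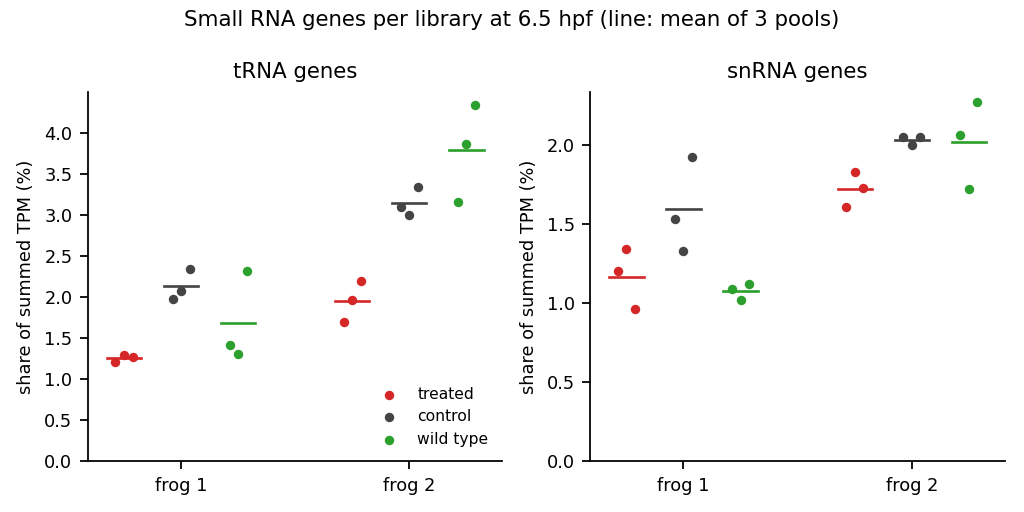
Share of summed TPM (y axis, %) taken by tRNA genes and by snRNA genes in each library at 6.5 hpf (points; lines are means of 3 pools), with treated, control and wild-type pools from left to right in each frog. The tRNA share is 1.21% to 1.29% in treated and 1.97% to 2.34% in control pools of frog 1 and 1.7% to 2.19% and 3.0% to 3.34% in frog 2, while the snRNA shares overlap between treated and control pools of frog 1.

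In 50 pairs of protein-coding L and S copies that both rose in wild type by 6.5 hpf, both copies were lower in frog 2 in 23 pairs, only the L copy in 11, only the S copy in 5 and neither in 11. In frog 1 these numbers were 1, 3, 1 and 45. Of all protein-coding genes rising by 6.5 hpf, 53% were lower in frog 2 and 4.59% in frog 1. Treated pools lay wholly below control pools for both copies in 35 pairs of frog 2 and 21 of frog 1. For single protein-coding genes rising by 6.5 hpf this held for 78.8% in frog 2 and 53% in frog 1. Whether copies of a pair go together more often than those shares give was not tested. The copies of a pair differed by a median of 0.22 and 0.15 on the log2 scale, and this difference was not tested. Lower genes of frog 2 also lay near each other: by a rule chosen after seeing the data, 3 or more with starts within 200000 bases of the next, 36 of 189 fell into 9 runs. Each run was cut at its own lower genes, and how many genes would fall into runs by position alone was not tested. Beside the *ventx* and nodal runs, 1 on 6L (2114441 to 2334066) held 7 lower genes of 13 tested, with *znf585b.L*, a zinc-finger gene, as its named member, with a median of -0.66, and 12 of 14 were below 0 in frog 1 with a median of -0.41. Neighbours with similar sequence can share reads.

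In the persistent depletion no auxin was given, so that the proteins stayed. Set against it, the window effect passed limma's test of the difference at 0 genes (0.0%) in both frogs. An unadjusted p under 0.05 was reached by 675 of 20891 genes in frog 1 and 468 of 20277 in frog 2, in either direction. The 467 rising genes had persistent medians of -0.25 and -0.81 beside window medians of -0.5 and -0.64. Of the 193 genes lower in frog 2, 162 (83.9%) were among the 236 lower in its persistent depletion, of which they made 68.6%. In frog 1 it was 1 of 21 among 19. These contrasts share no library within a frog.

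Against 5.5 hpf, the frogs took different courses. In frog 2 the window effect at 6.5 minus that at 5.5 hpf passed the threshold at 43 genes (0.212%), 40 of them negative and all 40 rising in wild type. *id3.S* had a difference of -2.03 there and *ventx1.1.L* of -1.78. At 5.5 hpf 0 genes of frog 2 were lower, and 932 of 20277 had an unadjusted limma p under 0.05 in either direction. In frog 1 80 of 20891 genes were lower at 5.5 hpf, 61 of them among the 467 rising genes. At 6.5 hpf these counts were 21 and 14. Of the 283 protein-coding rising genes, 185 had under 1 TPM in wild type at 5.5 hpf. On log2(TPM + 1) such genes have little room to be lower at 5.5 hpf, so their difference can repeat the 6.5 hpf change. In frog 1 the difference of the window effects passed at 35 genes (0.168%), with *id3.S* (-1.36 ± 0.277, adjusted p = 0.0404) the only negative gene and 34 positive. Of the positive ones 32 were outside the set rising by 6.5 hpf, which needed a log2 rise of at least 1 in both frogs. Among the 32 were the maternal T-box gene *vegt.L*, the germ plasm genes *dnd1.L* and *grip2.L*, and the dorsal determinants *trim36.L* and *hwa.L*. From 5.5 to 6.5 hpf in wild type the median over all genes was 0.61 in frog 1 and -0.34 in frog 2. A gene outside the set could thus still rise in frog 1. The window changes of the 32 ran from -0.7 to -0.32 at 5.5 hpf and from 0.27 to 0.67 at 6.5 hpf. The median of this difference over all genes was 0.21 in frog 1. Over 5.5, 6.5 and 7.5 hpf, the window medians of the rising genes were -0.39, -0.5 and -0.13 in frog 1 and -0.03, -0.64 and -0.22 in frog 2. At 5.5 hpf in frog 1 the mean log2(TPM + 1) of these genes was 1.652 to 1.768 in control pools with auxin. It was 0.939 to 1.236 in treated pools with auxin, 0.994 to 1.208 in wild type and 1.135 to 1.168 in control pools without auxin. Treated pools thus overlapped wild type there, and the control pools with auxin stood apart. Ribosomal RNA took 11.4% to 11.9% of the TPM in those control pools and 13.9% to 22.9% in the treated pools.

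Against 7.5 hpf, the window effect differed at 26 genes in frog 1 (0.124%) and 4 in frog 2 (0.0197%). In frog 1 24 were more negative at 7.5 hpf and 20 of these rose late in wild type, including the endoderm factors *gata6.L* and *gata4.L*, the mesoderm factor *osr1.L* and the head gene *otx2.L*. The changes of the 24 ran from -0.21 to 0.26 at 6.5 hpf and from -1.85 to -0.61 at 7.5 hpf. A gene with almost no RNA at 6.5 hpf has little room to be lower then, so its difference can repeat the 7.5 hpf change. *a2m.S*, a protease inhibitor gene, was more negative at 7.5 hpf in both frogs, by differences of -1.24 and -0.74. Of the 193 genes lower in frog 2 at 6.5 hpf, 90 (46.6%) were among the 379 lower at 7.5 hpf (23.7% of these). Of the 21 in frog 1, 0 were among 121, though 17 were below 0.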

How the data were processed

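RNA of pools of 3 embryos was depleted of ribosomal RNA and sequenced from strand-marking libraries. Per the labels and the study's methods, the authors quantified reads with kallisto 0.48 on the v10.1 genome annotation, summarised them to genes with tximport in R 4.3.2 and deposited TPM, which are scaled within each library and hold no depth. The authors also name DESeq2 1.42.1, for comparisons not used here. The tables held 39690 and 39432 entries. Entries sharing a name were summed (2269 and 2204 entries with 83 and 82 names), and 806 unnamed entries of frog 2, at most 0.0744% of a library's TPM, were left out. RefSeq tables of the same assembly gave gene types and positions.

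Genes with at least 1 TPM in 3 libraries of a frog's table were tested with limma 3.58.1 (R 4.3.3) on log2(TPM + 1), with a mean for each of 15 groups (30 residual degrees of freedom), trended empirical Bayes variances, 2-sided p-values and Benjamini-Hochberg adjustment within a contrast and frog. The design was checked on simulated data. Tables and figures used Python 3.11.15, pandas 2.3.3 and matplotlib 3.10.9. No model joined the frogs. With 3 pools a group, an exact permutation test could not go below 0.1, so no single value was tested that way. No 2 libraries held identical values.

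Genes, gene lists and contrasts were chosen with earlier results of these data known. Named genes were those called in both frogs, the 15 lowest and up to 8 highest without overlap in either frog, pluripotency and injected genes, and up to 4 called members per list. *inka1.L*, the examples for other times and the neighbour runs were chosen after their values were seen. Alternatives changed the pseudocount, filter, libraries fitted, scaling, variance model, replicate block and comparison group. Promoter sequences were not used here.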

Additional observations from a re-analysis of the deposited data

Results flagged for a closer look

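The window effect at 6.5 hpf differed from that at 5.5 hpf by limma's test of the difference itself for *id3.S* in frog 1, by -1.36, and for further genes. In frog 2 the differences were -2.54 for XB5961731.L, -2.54 for *cdc25b.L*, -2.03 for *id3.S*, -1.78 for *ventx1.1.L*, -1.64 for *has1.S* and -1.57 for *stx19.L*. They were -1.55 for *wnt8a.L*, -1.54 for LOC108719557, -1.5 for *ventx1.1.S*, -1.35 for *foxa4.L*, -1.28 for *id3.L*, -1.23 for *fgf8.L* and -1.23 for *hal.1.L*. They were -1.22 for *has2.L*, -1.16 for *has-rs.S*, -1.13 for *lefty.L*, -1.06 for *sp5l.L*, -1.03 for *gdf3.S*, -1.03 for *hes1.L*, -0.99 for *znf585b.L* and -0.86 for *fgf8.S*. All of these genes rose in wild type between both times. In frog 1 maternal genes differed the other way, by 0.94 for *dnd1.L*, 1.09 for *grip2.L*, 0.91 for *hwa.L*, 1.03 for *trim36.L* and 0.9 for *vegt.L*. The window effect at 7.5 minus that at 6.5 hpf was -1.85 for *osr1.L*, -1.66 for *gata6.L*, -1.57 for *otx2.L*, -1.26 for *gata4.L* and -1.24 for *a2m.S* in frog 1 and -0.74 for *a2m.S* in frog 2.

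For a pair of genes every treated pool lay on opposite sides of the control pools in the frogs. *chst9l.3.L* changed by -1.01 in frog 1 and 0.22 in frog 2, and *dkk1.S* by 0.46 in frog 1 and -0.97 in frog 2. The difference between frogs was not tested. Groups of 3 pools are too small for a test of single outlying pools.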

How the results depend on the processing

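The cause of the changes below was not tested. With single pools left out, frog 1 had 7 to 44 lower and 1 to 3 higher genes, and frog 2 had 122 to 172 and 6 to 94. The frog 1 lower counts were 44, 8 and 8 without treated pools 1.1, 1.2 and 1.3 and 7, 10 and 13 without control pools 1.1, 1.2 and 1.3, and the frog 2 higher counts were 6, 16, 94, 58, 11 and 13 in the same order. The median of genes rising by 6.5 hpf was -0.57 to -0.47 (frog 1) and -0.68 to -0.56 (frog 2). Of them 32, 2, 6, 4, 3 and 7 were lower in frog 1 in that order and 112 to 151 in frog 2. Between 3 and 23 genes were called in both frogs. With a pseudocount of 0.1, frog 1 had 0 lower genes (0 of the rising genes, median -0.63), frog 2 had 25 higher (rising median -0.76) and 1 gene was called in both. That pseudocount left 0 genes in each frog for the 7.5 minus 6.5 hpf difference and 24 in frog 2 for 6.5 minus 5.5 hpf. With no filter, 12 and 25 genes were higher. With a mean of at least 5 TPM, 2 were higher and the rising median was -0.58 in frog 1, and 114 were lower in frog 2, 104 of them rising. Filtering on the 6 libraries of the contrast gave 54 lower, 43 of them rising, and 2 higher genes in frog 1. Fitting only those 6 libraries gave 52 lower (43 rising) in frog 1, 101 lower (67 rising) and 5 higher in frog 2, and 1 in both, and only 1 of the 21 lower genes of frog 1 was kept. Fitting the 5 groups at 6.5 hpf gave 0 lower (0 rising) in frog 1, 122 lower and 6 higher in frog 2, and 1 in both. Median-ratio rescaling gave 54 lower (34 rising) and 11 higher in frog 1, 22 higher in frog 2 and 27 in both, with 110 and 46 genes for 7.5 minus 6.5 hpf and 60 and 69 for 6.5 minus 5.5 hpf. Quantile normalization gave 60 lower (41 rising) and 45 higher in frog 1 and 32 in both, with 143 and 49 genes for 7.5 minus 6.5 hpf and 129 in frog 1 for 6.5 minus 5.5 hpf. Protein-coding genes alone gave 61 lower (42 rising) and 6 higher in frog 1, 39 higher and a rising median of -0.82 in frog 2, and 36 in both. Without the variance trend 31 were higher in frog 2. Library weights, set by limma arrayWeights, gave 183 lower (81 rising) and 192 higher in frog 1, 580 lower (257 rising) and 5099 higher in frog 2, and 128 in both. A log2 rise of at least 2 in wild type gave rising medians of -0.63 and -0.76 with 95 lower in frog 2, and protein-coding members alone gave -0.41 in frog 1. Replicate numbers did not pair the pools, with correlations of same-numbered pools between -0.062 and 0.006. The replicate block gave 24 lower and 3 higher in frog 1, 185 lower and 26 higher in frog 2, and 10 in both, 9 of them the same genes.

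Added after seeing the data, identical entries counted once gave 29 higher in frog 2. Control without auxin as the comparison group gave 159 lower (34 rising) and 11001 higher in frog 1 with a rising median of -0.07 (0.34 over all genes), 367 and 1437 in frog 2, and 1283 in both. It turned these frog 1 values: *bcl2.L* 0.2, *cdc25b.S* 0.56, *foxi4.2.L* 0.08, *h3-3b.L* 0.26, *hal.1.L* 0.04, *has-rs.S* 0.03, *has1.S* 0.24, *sfrp2.L* 0.21, *sox3.L* 0.34 and *sox3.S* 0.31. Wild type as the comparison group gave 184 lower (135 rising) and 334 higher in frog 1 with a rising median of -0.32, 394 and 2883 in frog 2, and 298 in both. It turned LOC121402951 to 0.38, *cdkn1a.S* to 0.7, *grhl3.L* to 1.43, *h3-5.L* to 1.94, *hba1.S* to 1.41 and *hes3.L* to -2.05 in frog 1. Of the genes picked by the naming rules, 14 were called in frog 1, with 1 never lost and 8 turned under a changed comparison group. In frog 2 61 were called, with 15 never lost and 0 turned. Genes named outside those rules, such as *inka1.L* and the tRNA names, were not checked in this way. The difference between window and persistent effects stayed at 0 genes. No depth is known, so counting error could not be set against these values.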
